A study of Homo sapiens with 6 samples.

Results

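The gelsolin family is a group of 8 human genes, GSN, SCIN, CAPG, FLII, VIL1, AVIL, VILL and SVIL, that encode gelsolin, villin and their relatives. They were taken by gene name from the deposited expression table, where each name matched 1 of 31016 genes. Their RNA was measured in DLD-1, a human colorectal adenocarcinoma cell line, in 6 libraries: 3 from cells given TGF-β together with TFA, and 3 from cells given TGF-β alone. TFA is the total flavone of the plant Abelmoschus manihot, and TGF-β is a cytokine that can drive epithelial cells towards a mesenchymal state. Every cell had received TGF-β, so the comparison asks what TFA added to it, given after TGF-β per the series' design; neither a dose nor separate cultures are stated for the replicates. Treatment times in the labels were 24, 25 and 26 hours for replicates 1, 2 and 3 of both groups.

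Proteins of this family are built from repeats of a gelsolin domain, which binds actin and in several members calcium. Gelsolin itself cuts actin filaments when calcium rises and then stays on the fast-growing end as a cap, so that filaments are both shortened and blocked from growing. Villin, its relative in the gut epithelium, also bundles filaments inside microvilli through an added headpiece at its C-terminus, and cells that crawl or die remodel the same filaments. The family was selected on fold changes measured in the present comparison, so its fold changes, counts and group differences are a description, with nothing inferred from them.

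The third TFA library stood apart from the other 5 in a trend along gene length, and values without it are given beside the members it moved most. The 2 members whose libraries separated by group were GSN and SCIN, in opposite directions. In cells given TFA, SCIN RNA was at 1.72 times its level with TGF-β alone (95% interval 1.35 to 2.18), and GSN RNA at 0.717 times (0.587 to 0.877). The other 6 members overlapped between the groups. In edgeR's quasi-likelihood test with adjustment over 18265 genes, 0 of the 8 members were called, against 0.0109% of all genes tested. At an unadjusted p under 0.05 the test gave 2 of the 8, SCIN and GSN, against 1.83% of all genes (1.07% higher and 0.761% lower), and the DESeq2 Wald test called 1, SCIN, against 0.0712% of genes. Groups that did not overlap in FPKM were found in 2 of the 8 members and in 7.95% of all genes (4.22% higher and 3.73% lower).

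The RefSeq sequence around the start of SCIN and of GSN is shown because these are the members that differed, and because CYP1A1, the standard readout of the aryl hydrocarbon receptor, was high in the same libraries (22.5 ± 1.70 FPKM with TFA and 0.50 ± 0.0987 FPKM with TGF-β alone, SD, n = 3). In mice, Scin is known as a gene that dioxin induces through that receptor. Whether the receptor has any part in the SCIN or GSN values was not tested. The receptor's core motif is GCGTG. Each window runs from 250 bases before a start to 50 bases after it (GRCh38.p14), 5′ to 3′ on the gene's strand, with GCGTG or its reverse complement in capitals. The SCIN window is chr7:12570470-12570769 (plus strand), and those of GSN, both on the plus strand, are chr9:121201233-121201532 and chr9:121299410-121299709.
SCIN: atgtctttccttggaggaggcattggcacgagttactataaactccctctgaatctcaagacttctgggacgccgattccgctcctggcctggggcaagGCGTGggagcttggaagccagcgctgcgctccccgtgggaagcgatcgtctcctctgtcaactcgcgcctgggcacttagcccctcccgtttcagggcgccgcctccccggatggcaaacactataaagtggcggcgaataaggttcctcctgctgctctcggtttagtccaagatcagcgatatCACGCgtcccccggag
GSN upstream start: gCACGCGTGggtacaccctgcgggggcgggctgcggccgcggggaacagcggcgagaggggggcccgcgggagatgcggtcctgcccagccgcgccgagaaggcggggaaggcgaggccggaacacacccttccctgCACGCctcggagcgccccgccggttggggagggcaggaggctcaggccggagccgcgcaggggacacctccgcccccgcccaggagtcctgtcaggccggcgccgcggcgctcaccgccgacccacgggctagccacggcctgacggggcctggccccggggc
GSN downstream start: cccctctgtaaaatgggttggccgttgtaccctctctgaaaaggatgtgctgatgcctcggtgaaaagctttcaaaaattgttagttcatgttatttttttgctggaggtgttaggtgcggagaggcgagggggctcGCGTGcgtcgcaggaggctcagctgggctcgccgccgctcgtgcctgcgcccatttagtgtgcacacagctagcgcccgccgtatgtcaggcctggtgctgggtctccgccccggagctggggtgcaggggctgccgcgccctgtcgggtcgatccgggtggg

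SCIN had 1 listed start and 2 matches, at -151 bases from it and, on the other strand, at 34. The gene's start in the deposited table, 12570577, lies in this window but before the listed start. These offsets hold for the listed start only. GSN had 6 listed starts, of which the upstream one shown lies before the gene's start in the deposited table. It had 4 matches in 2 of its windows, 3 in the upstream one shown and 1 in the downstream one. Its windows without a match are not shown. The letters GCGTG on either strand occurred in 36.5% of all 35116 windows of this kind, and at least 2 matches in 12.7%. Among genes with 1 listed start, as SCIN has, these shares were 35.4% and 12.2%. Across the 7 members with a window, 8 of 20 windows held a match, in SCIN, GSN, SVIL, AVIL and CAPG but not in FLII or VILL. VIL1 had no window. Members with several listed starts had more windows in which a match could fall, so no share per gene is compared. The deposited values are summed per gene and do not say which GSN start was used.

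**Figure D1:**
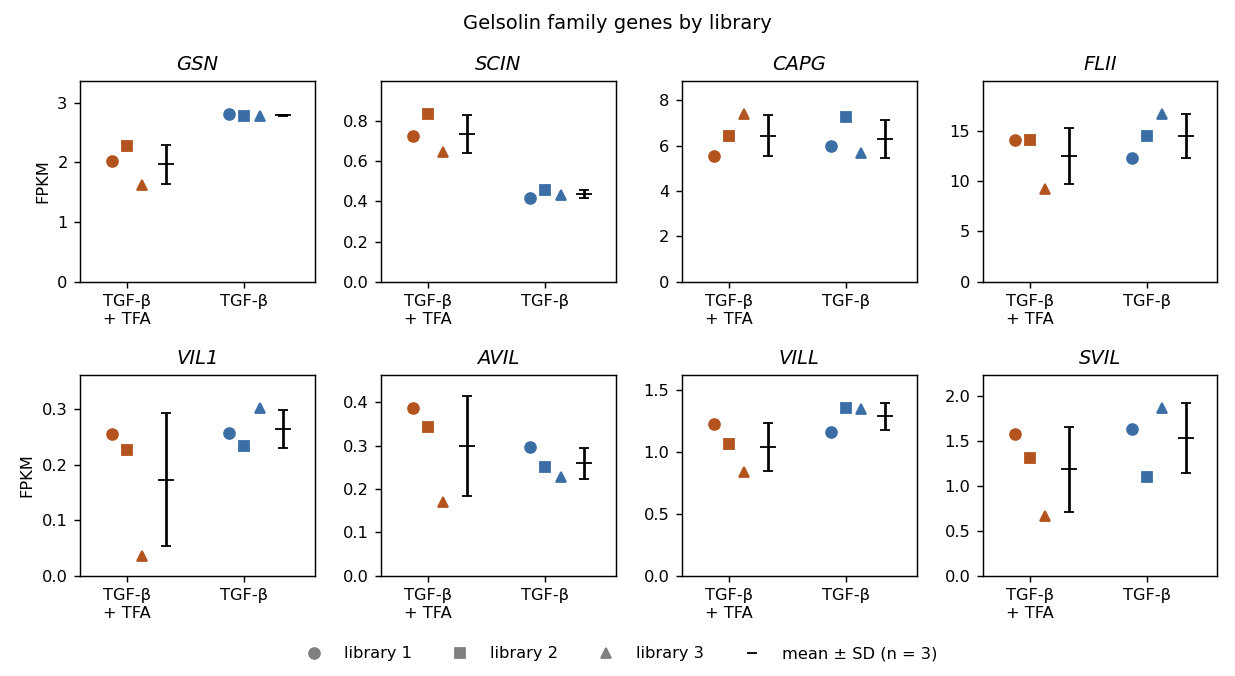
FPKM of each gelsolin family gene in every library (y axes start at 0 and differ between panels), TGF-β with TFA on the left and TGF-β alone on the right. Symbols mark the library number and the bar is the mean ± SD of 3 libraries. GSN and SCIN separate by group, and the third TFA library is the lowest point of its group in every panel except CAPG.

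Gelsolin (GSN, ENSG00000148180, chr9:121207794-121332843, plus strand, GRCh38) is the calcium-dependent severing protein for which the family is named, and caspases cut it in dying cells. It had 2.02, 2.27 and 1.62 FPKM in cells given TFA with TGF-β, against 2.80, 2.78 and 2.78 FPKM in cells given TGF-β alone. All 3 TFA libraries lay below all TGF-β libraries, and nearly all of the spread was among the TFA libraries. The means were 1.97 ± 0.325 FPKM with TFA and 2.79 ± 0.0120 FPKM without it (SD, n = 3 each). In the edgeR fit this was a log2 fold change of -0.48 (SE 0.12; 95% interval -0.77 to -0.19). GSN did not pass over all genes in edgeR (adjusted p = 0.9997) or in DESeq2 (adjusted p = 0.202).

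Scinderin (SCIN, ENSG00000006747, chr7:12570577-12653104, plus strand), also called adseverin, is a calcium-dependent severing protein first known from secretory cells, where it opens the actin layer under the membrane. It had 0.722, 0.830 and 0.646 FPKM with TFA, against 0.417, 0.457 and 0.429 FPKM with TGF-β alone. Every TFA library lay above every TGF-β library, by a margin wider than the range within either group. Its estimated counts were 570, 675 and 513 with TFA, and 375, 395 and 355 with TGF-β alone. The log2 fold change was 0.78 (SE 0.15; 95% interval 0.44 to 1.12). DESeq2 called it (adjusted p = 0.00967) and edgeR did not (adjusted p = 0.9997). Since 1 deposited count may not be 1 fragment, counts divided by 4 were also fitted, but in edgeR only. Whether the DESeq2 call holds in that unit was not tested.

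Set against each other within a library, the 2 severing genes are free of any scaling between libraries. Because they moved in opposite directions, their ratio had to differ more between the groups than either gene, so it is a description only. The ratio of SCIN to GSN in FPKM was 0.358, 0.366 and 0.399 in the TFA libraries, and 0.149, 0.164 and 0.154 in the TGF-β libraries. The mean ratio was thus 2.40 times as high with TFA. In FPKM, GSN remained the more abundant of the pair in every library. It stood at 2.51 to 2.79 times SCIN with TFA and 6.08 to 6.71 times SCIN with TGF-β alone. Of the family's summed FPKM, GSN gave 7.81% to 8.53% with TFA and 9.52% to 11.3% without it. SCIN gave 2.80% to 3.14% with TFA and 1.47% to 1.68% without it. These ratios and shares rest on the gene length that FPKM divides by. For GSN this was 11033 bases, against 2657 in its principal transcript. Per kilobase of principal transcript, as given below, GSN stood higher still against SCIN.

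**Figure D2:**
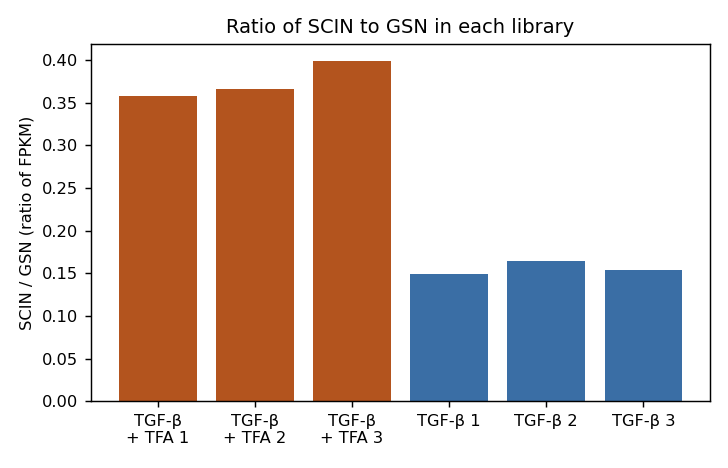
Ratio of SCIN to GSN (FPKM over FPKM, y axis from 0) in each library, TGF-β with TFA first. The 3 TFA libraries stand between 0.358 and 0.399 and the 3 TGF-β libraries between 0.149 and 0.164.

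CAPG and FLII, the most abundant members in FPKM, act at filament ends and in larger assemblies. CAPG (chr2:85394753-85418432, minus strand) caps the fast-growing end but does not cut filaments. It had 5.53, 6.45 and 7.38 FPKM with TFA, against 6.0, 7.27 and 5.68 FPKM with TGF-β alone. The ranges lay on each other, and the log2 fold change was 0.07 (95% interval -0.40 to 0.54). Its fold change was -0.13 without the third TFA library and -0.04 without the third TGF-β library. FLII (chr17:18244815-18258738, minus strand), the flightless homologue, joins leucine-rich repeats to gelsolin repeats and also acts with nuclear receptors. It had 14.1, 14.1 and 9.22 FPKM with TFA, against 12.3, 14.5 and 16.6 FPKM with TGF-β alone. Only the third TFA library lay outside the range of the TGF-β group, and the log2 fold change was -0.20 (95% interval -0.59 to 0.20) with that library and -0.08 without it. Leaving out the first TGF-β library gave -0.31, and the third -0.13.

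The 4 members with a villin headpiece, VIL1, AVIL, VILL and SVIL, were low in these cells and gave 8.27% to 13.4% of the family's summed FPKM with TFA and 10.5% to 13.5% with TGF-β alone. Villin (VIL1, chr2:218419121-218453295, plus strand), a marker of differentiated gut epithelium, had 0.256, 0.227 and 0.0356 FPKM with TFA, against 0.257, 0.233 and 0.302 FPKM with TGF-β alone. One of the first 2 TFA libraries lay inside the TGF-β range and the other just below it, and the third had 17 estimated counts where the other 5 had 110 to 148. Its log2 fold change was -0.63 (95% interval -1.95 to 0.69), -0.17 without the third TFA library and -1.01 without the first. VIL1 also shares 3045 of its 6920 exon bases in GENCODE 29 with USP37, a ubiquitin protease gene on the other strand that had 2488, 2497 and 1250 counts with TFA and 2557, 1669 and 2528 with TGF-β alone. The library kit marks strand, but the sources used here do not say whether counting used it, and without it reads of VIL1 and USP37 cannot be told apart there.

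Advillin (AVIL, chr12:57797376-57818704, minus strand), known from sensory neurons and tuft cells, had 0.386, 0.343 and 0.169 FPKM with TFA, against 0.298, 0.250 and 0.229 FPKM with TGF-β alone. Its TFA libraries lay on both sides of the TGF-β group, with a log2 fold change of 0.21 (95% interval -0.50 to 0.91). That value was 0.01 without the first TFA library, 0.44 without the third, 0.11 without the second and 0.09 without the third TGF-β library. The villin-like gene VILL (chr3:37988059-38007188, plus strand) had 1.22, 1.06 and 0.836 FPKM with TFA, against 1.16, 1.35 and 1.35 FPKM with TGF-β alone (log2 fold change -0.29; 95% interval -0.66 to 0.09). The groups overlapped at 1 library of each. Supervillin (SVIL, chr10:29457338-29735911, minus strand), which ties actin and myosin to the membrane, had 1.59, 1.31 and 0.661 FPKM with TFA, against 1.64, 1.10 and 1.87 FPKM with TGF-β alone. Its log2 fold change was -0.37 (95% interval -1.04 to 0.31), -0.13 without the third TFA library and -0.61 without the first.

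**Figure D3:**
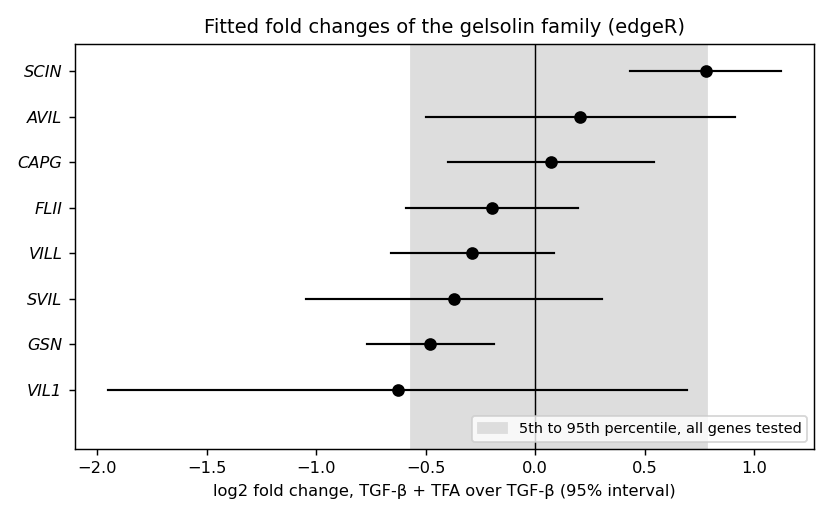
Fitted log2 fold change of each member, TGF-β with TFA over TGF-β alone (edgeR, bars are 95% intervals, grey band is the 5th to 95th percentile of 18265 genes, -0.57 to 0.78). The intervals of SCIN and GSN do not reach 0, while those of the other 6 members do. The points of SCIN (0.779) and GSN (-0.480) lie inside the grey band, SCIN close to its upper edge (0.783). That of VIL1 (-0.627) lies outside it.

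The third TFA library stood apart from the others over the whole table, and 7 of the 8 members were lower in it than the mean of the other TFA libraries. The longest decile of genes lay there at a median of -0.33 from the mean of the 6 libraries (log2 CPM) and the shortest decile at 0.36, whereas in the other 5 libraries these medians lay between -0.16 and 0.20. Within the TFA group it differed from the mean of the other libraries by -2.52 in VIL1, -0.90 in SVIL, -0.86 in AVIL and -0.38 in FLII (log2 CPM), but by only -0.17 in GSN and -0.03 in SCIN. CAPG, the shortest gene model of the family, was higher there by 0.53. Leaving this library out gave log2 fold changes of -0.42 for GSN and 0.79 for SCIN. With each library's trend along gene length removed, GSN had -0.44 and SCIN 0.82. Library totals were 60361756 to 62304157 estimated counts with TFA and 62981239 to 68745953 with TGF-β alone.

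**Figure D4:**
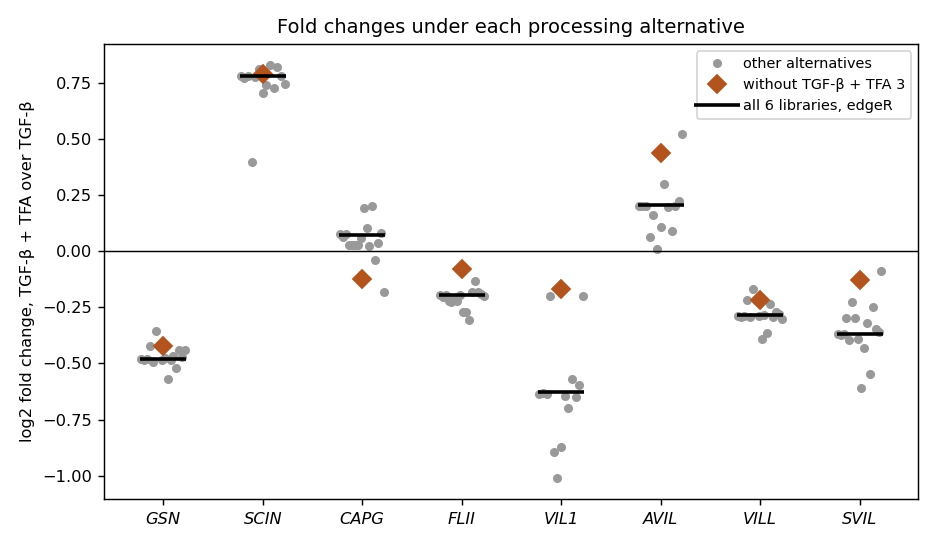
Log2 fold change of each member, TGF-β with TFA over TGF-β alone, with all 6 libraries in edgeR (black bar), without the third TFA library (diamond) and under the other alternatives (grey points, spread sideways only for visibility). GSN stays below 0 and SCIN above 0 at every point, the lowest SCIN value, 0.40, being on the log2(FPKM + 0.5) scale, while CAPG crosses 0.

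By level, the family spanned 72.1-fold in FPKM with TFA and 55.8-fold with TGF-β alone, in nearly the same order in both groups. The order of the means with TFA was FLII, CAPG, GSN, SVIL, VILL, SCIN, AVIL and VIL1, and with TGF-β alone only the last pair changed places. Neighbours in that order whose ranges overlapped were SVIL with VILL and AVIL with VIL1, in both groups. Among all 31016 genes in the table, mean FPKM put FLII at percentile 91.0, CAPG at percentile 84.4, GSN at percentile 74.3, SCIN at percentile 61.1 and VIL1 at percentile 52.2. The deposited FPKM divides by a fixed gene length, which for GSN was 11033 bases, close to the 11018 bases of all its GENCODE 29 exons together and far above the 2657 bases of its principal transcript. Per kilobase of principal transcript, GSN had 9.23 ± 0.826 CPM with TFA and 12.9 ± 0.192 CPM with TGF-β alone, and SCIN, whose principal transcript has 9713 bases, had 0.995 ± 0.0690 CPM and 0.580 ± 0.0363 CPM (SD, n = 3 each). On that scale the order of the means with TFA differed from that in FPKM only by an exchange of SVIL and VILL. With TGF-β alone, FLII stayed first, and CAPG stayed above GSN in the mean only (13.5 ± 2.06 against 12.9 ± 0.192 CPM per kilobase). Their libraries overlapped, at 12.76, 15.88 and 12.00 for CAPG and 12.85, 13.07 and 12.68 for GSN. SVIL and VILL were exchanged, and AVIL (0.600 ± 0.0753 CPM per kilobase) came level with SCIN, ahead of VIL1 (0.311 ± 0.0366). The ratio of SCIN to GSN was 0.103 to 0.115 with TFA and 0.0431 to 0.0476 without it.

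A few members share sequence or position with other genes. Stretches of 75 bases in the longest transcript of each member were sought in transcripts of other genes, on either strand. The share found there was 46.0% in VIL1 (with USP37), 4.2% in SVIL (with SVIL-AS1 and the pseudogene SVIL2P) and 0.710% in AVIL (with TSFM). In SCIN it was 3.90% (with AC005281.1 and AC011891.1), and the values of these genes were not compared with those of SCIN. No such stretch was found for GSN, CAPG, FLII or VILL. GSN lies over 2 minor genes on the opposite strand, GSN-AS1 and AL513122 (ENSG00000239593), with which it shares 279 and 82 exon bases. GSN-AS1 had 6, 0 and 0 counts with TFA, against 22, 20 and 12 with TGF-β alone. Its groups did not overlap either, as in 3.73% of all genes tested in that direction. These counts lie near 0. If counting ignored strand, reads of GSN-AS1 and GSN cannot be told apart where their exons overlap. AL513122 had 0 counts in each TFA library, against 9, 0 and 2 with TGF-β alone. GSN itself had 1219 to 1745 counts with TFA and 2180 to 2381 with TGF-β alone. RAB14, the other gene over GSN, shares 0 exon bases with it and had a log2 fold change of -0.16 (95% interval -0.49 to 0.16). The log2 fold change was 0.13 for TSFM, which shares 303 exon bases with AVIL, -0.10 for LLGL1, which shares 40 with FLII, and -0.11 for SVIL-AS1, which shares 353 with SVIL. The small RNA gene RNU6-1083P lies in AVIL and had 1 count in all. CKS1BP2 in SVIL and the AC025165 rows in AVIL share 0 exon bases with these members.

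Most markers of the labelled cell type were high, while those of other cell types stood near 0. The colorectal epithelial markers summed to 1434 to 1583 FPKM with TFA and 1546 to 1818 FPKM with TGF-β alone, led by KRT18 and KRT8, but GPA33 and LGALS4, 2 of the 10 in the table, averaged only 0.0804 and 0.0969 FPKM over all libraries. The 10 fibroblast markers, each under 1 FPKM on average, summed to 0.464 to 2.40 FPKM with TFA and 0.0630 to 0.373 FPKM with TGF-β alone, so every TFA library was higher, and their part in the GSN and SCIN values was not tested. All 7 fibroblast markers tested were fitted above 0, with a median log2 fold change of 2.85. Neither edgeR nor DESeq2 called any, and 4 had an unadjusted edgeR p under 0.05 (COL1A1, COL1A2, COL6A3 and PDGFRA), against 1.83% of all genes. The most abundant were the collagens COL1A2, with 90, 510 and 545 counts with TFA and 0, 88 and 87 with TGF-β alone, and COL1A1, with 59, 390 and 437 counts with TFA and 4, 76 and 49 with TGF-β alone. DCN, LUM and COL3A1 were at 0 counts in every TGF-β library and in the first TFA library. Endothelial markers (0.255 to 0.548 FPKM with TFA, 0.258 to 0.310 FPKM without), haematopoietic markers (0.452 to 0.693 and 0.443 to 0.593 FPKM) and muscle markers (0.0922 to 0.126 and 0.0409 to 0.0975 FPKM) overlapped between the groups. In bulk RNA, fewer cells of a type and less RNA per cell cannot be told apart.

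The other machinery of actin turnover was read from 7 lists, and none of 111 tested genes in them was called by edgeR or DESeq2. At an unadjusted edgeR p under 0.05 there was 1, or 0.901% of the 111, against 1.83% of all genes tested. This was MYL9, a myosin light chain of contractile cells (log2 fold change 1.31, SE 0.53). It had 38, 33 and 52 counts with TFA and 11, 27 and 17 with TGF-β alone. Its groups did not overlap, as in 4.22% of all genes tested in that direction. In all, 50 genes were fitted above 0 and 61 below, with a median of -0.03 against 0.01 for all genes tested. The gelsolin family had 3 of 8 above 0, 5 below and a median of -0.24, and 48.1% of all genes tested were fitted below 0. Without the third TFA library the family's median was -0.13, and all medians of the other lists except that of the cofilin list changed sign, lying between -0.05 and 0.13.

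Cofilin and its regulators, the other main route of filament cutting, had a median of -0.03 over 20 genes, 9 above 0 and 11 below. Their most abundant members were CAP1, which recycles actin monomers (102.5 ± 3.00 FPKM with TFA and 103.8 ± 5.32 FPKM with TGF-β alone), and TWF1, twinfilin (104.7 ± 12.3 and 98.5 ± 5.81 FPKM). Genes of filament end capping had a median of -0.06 over 17 genes, 7 above 0 and 10 below. CAPZA1, a subunit of the capping protein of the same filament end that gelsolin caps, had 135 ± 6.96 FPKM with TFA and 134 ± 6.77 FPKM without it, and the adducin ADD3 had 57.1 ± 14.9 and 68.8 ± 14.6 FPKM. The means of all 4 genes differed by less than the spread between libraries of at least 1 group.

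Actins and monomer-binding genes (13 tested, 7 above 0) had a median of 0.08, led by TMSB10 (2084 ± 362 FPKM with TFA and 1958 ± 164 FPKM without) and TMSB4X (492 ± 117 and 462 ± 73.4 FPKM), thymosins that hold actin monomers. The Arp2/3 complex, which starts branched filaments, and its activators (18 tested, 9 above 0) had a median of 0.01, with ACTR2 at 0.03 (SE 0.16) and BRK1 at 0.15 (SE 0.23). Formins, which start and extend straight filaments (11 tested, 3 above 0), had a median of -0.12, with DIAPH1 at -0.12 (SE 0.24) and DIAPH3 at 0.08 (SE 0.25). Crosslinking, tropomyosin and non-muscle myosin genes (20 tested, 11 above 0) had a median of 0.00, with the light chains MYL12B at 0.14 (SE 0.19) and MYL12A at 0.16 (SE 0.22).

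Microvillus and brush border genes, the setting in which villin works, had a median of -0.11 over 12 tested genes, 4 above 0 and 8 below. Their summed level was 122 to 166 FPKM with TFA and 171 to 179 FPKM with TGF-β alone, and more than any other gene it was made of EZR, ezrin, which links microvillar actin to the membrane. EZR had 88.4, 82.4 and 75.4 FPKM with TFA, against 93.6, 110.5 and 98.0 FPKM with TGF-β alone, and did not pass (log2 fold change -0.27; 95% interval -0.56 to 0.03). The groups did not overlap, as in 3.73% of all genes tested in that direction. The gap between them was narrower than the range within either. MYL9 and EZR were not the only actin list genes whose groups did not overlap. PLS1, the plastin that bundles microvillar filaments with villin, had 25.4 ± 6.80 FPKM with TFA and 27.4 ± 3.12 FPKM without it (log2 fold change -0.10, SE 0.17). The list's median was 0.05 without the third TFA library.

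**Figure D5:**
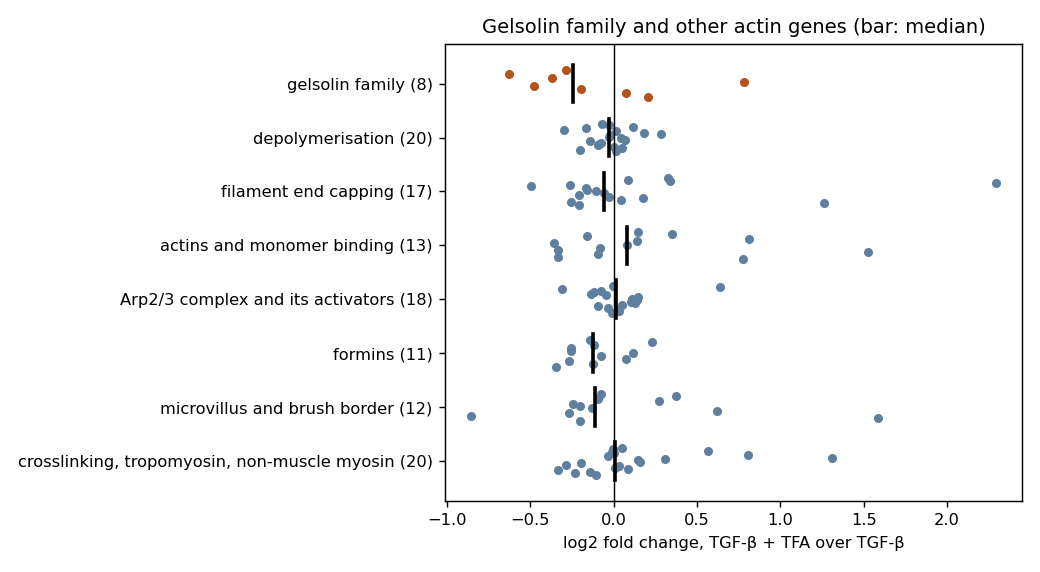
Log2 fold change of every tested gene of the gelsolin family (top row) and of the 7 other actin lists, TGF-β with TFA over TGF-β alone, with the number tested in brackets and a black bar at the median. The median of the gelsolin family is -0.24, and those of the other lists lie between -0.12 and 0.08.

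The genes whose values ran most like those of GSN over the 6 libraries were HMGN2P5, a pseudogene of a chromatin protein, AMACR, a racemase of branched fatty acid oxidation, SCNN1A, an epithelial sodium channel subunit, SLC2A3, a glucose transporter, and BNIP3L, a mitophagy receptor. Likeness was the root mean square distance between profiles of log2 CPM, each centred on its own mean, among 5610 genes with a mean of at least 5 FPKM. The distance was 0.055 for HMGN2P5, 0.070 for AMACR, 0.107 for SCNN1A, 0.116 for SLC2A3 and 0.119 for BNIP3L, against a median of 0.323 over all genes compared. Their log2 fold changes ran from -0.48 (HMGN2P5) to -0.32 (BNIP3L), and edgeR called none of them. The genes were picked for this likeness, so it is a description only.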

How the data were processed

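Poly(A) RNA of 6 DLD-1 libraries was sequenced as paired reads with strand kept by dUTP, per the labels' protocols. Of software, StringTie 1.3.4d, HISAT2 2.0.4 and cutadapt 1.9, with build GRCh38, are listed per the submitters' processing notes, without their roles. For each of 31016 genes the authors deposited FPKM and estimated counts in every library. Adapters carried molecular identifiers per the labels; the sources do not say whether counting used them or strand. The estimated counts deposited are whole numbers. A count of 4 was more frequent (1032 to 1271 genes per library) than 3 (601 to 685) or 5 (345 to 396), so 1 count may not be 1 fragment.

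Estimated counts, already whole, were tested in edgeR 4.0.16 (R 4.3.3; filterByExpr, TMM, quasi-likelihood, 2-sided, group only, Benjamini-Hochberg over all genes tested, called at an adjusted p under 0.05). DESeq2 1.42.0 and limma 3.58.1 on log2(FPKM + 0.5) served as alternatives, beside other pseudocounts, filters, scalings, left-out libraries, a length correction and a replicate block. CPM is on TMM-scaled library sizes. The test was tried on simulated counts. No library repeated another of its own group (lowest chi-square per degree of freedom 12.4, or 3.10 if a fragment adds 4 counts). Libraries of different groups were not compared in this way. Since the labels name no separate cultures, p-values measure the spread between these libraries.

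Family members and gene lists were chosen with earlier results of these data known. Named genes are all members, the 2 most abundant of each actin list, actin list genes at an unadjusted p under 0.05, genes overlapping a member, the 5 profiles nearest to GSN (mean of at least 5 FPKM), and CYP1A1, added beside the motif. Cell type markers were named after their values were seen. The 120 symbols of the actin lists matched 118 rows of the table, with 1 symbol on 2 rows. Promoter windows are from RefSeq (GRCh38.p14), with 7 of 8 members matched and no window for VIL1.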

Additional observations from a re-analysis of the deposited data

How the results depend on the processing

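All 17 alternatives kept GSN lower with TFA (log2 fold change -0.57 to -0.36, unadjusted p under 0.05 in each), and the 14 alternatives that tested SCIN kept it higher (0.40 to 0.83, unadjusted p under 0.05 in each). Neither passed an adjusted p of 0.05, except SCIN in DESeq2. VIL1, AVIL, VILL, FLII and SVIL also kept their direction in each alternative run. CAPG reversed without TGFb_TFA 3 (-0.13), without TGFb 3 (-0.04) and with TGFb 1 and TGFb_TFA 3 left out together (-0.18), and ran from -0.13 to 0.20 when 1 library was left out; the cause was not tested. The limma fits with a minimum of 1 FPKM did not test SCIN, VIL1 and AVIL.

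edgeR called 2 genes over the whole table, 2 higher and 0 lower. DESeq2 called 13, 11 higher and 2 lower, with 1 family member; unfiltered limma on FPKM called 1, higher; and omitting both TGFb 1 and TGFb_TFA 3 gave 1 call lower. Leaving out 1 library gave 1 to 3 calls, all higher, and 0 family members. The replicate block gave 1 call, higher, and no family member. Same-numbered libraries share a treatment time in the labels and correlated at 0.040, -0.12 and -0.13 (deviations from group means). No TFA library correlated best with its own number, and the numbers were not used as pairs in the main test. With 3 libraries per group, these correlations cannot exclude a pairing. Low counts limit VIL1 (17 to 148) and AVIL (70 to 156). Levels per kilobase of principal transcript were chosen after seeing the data.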
